A study of Homo sapiens with 18 samples.

Results

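The late response of TIGK keratinocytes to a scratch wound was read by setting 3 libraries collected 24 h after the scratch against 3 libraries of unscratched cells (0 h), 6 of the 18 libraries in the series. The libraries were taken by line and time as labelled, and every gene with enough reads was included: 17409 of the 58735 genes in the table were tested. TIGK is 1 line of keratinocytes from human gingiva, the gum, immortalised with telomerase, and no other agent or genetic change is given for it. The series set out to compare how oral and skin keratinocytes respond to wounding, and it also holds TIGK at 6 h and HaCaT, an immortal line of skin keratinocytes, at 0 h, 6 h and 24 h, with 3 libraries in each group. The labels do not say that the 3 libraries of a group came from separate cultures, so p-values may measure technical spread alone. No unscratched culture kept for 24 h was analysed here, so time after the scratch and time in culture cannot be told apart.

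When a sheet of keratinocytes is scratched, cells at the edge first switch on signalling and migration genes, then divide to refill the gap, and later return to a resting, stratifying state. Keratinocytes are also sentinels: they sense foreign nucleic acid and release interferons, which act through their receptors to switch on a large set of antiviral genes. Growth is matched to supply in these cells by making ribosomes and lipids while dividing and by shutting both down, with FOXO factors active, when growth signals fade.

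The 6 libraries held 14763305 to 25011331 counted reads. Library C at 0 h was the deepest, with 25011331 reads against at most 17264601 in the other 5, and deeper libraries detect more genes. It had 26246 genes detected against 21457 to 22799 and 5.08% mitochondrially encoded reads against 5.84% to 7.33%. Library C of TIGK at 6 h, with 18039684 reads, 25161 genes and 4.98%, resembled it. Levels are CPM (read counts scaled to a common library size, with TMM scaling between libraries), given for libraries A, B and C in that order, and as mean ± SD over the 3 libraries of a group (n = 3). A gene was called where the edgeR adjusted p, the false discovery rate over all genes tested, was under 0.05. Of the 8 keratinocyte markers all were detected: their summed level was 30495 to 31537 CPM at 0 h and 36339 to 40754 at 24 h. Immune markers summed to 4.31 to 6.35 CPM at 0 h and 3.13 to 3.76 at 24 h, and PTPRC, CD3E, CD68 and LYZ were too low to test. Melanocyte markers summed to 13 to 15.4 and 21 to 27.6 CPM and endothelial markers to 1.29 to 1.97 and 4.72 to 6.47 CPM. Fibroblast markers summed to 236 to 274 CPM at 0 h and 391 to 435 at 24 h. Their part in the results was not tested.

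At 24 h 5617 genes (32.3% of those tested) were called. Of these 2655 (15.3%) were higher and 2962 (17%) lower than in unscratched cells. Most changes were small: 2881 of the called genes differed by less than 1.5-fold, 1227 by at least 2-fold (599 higher, 3.44%, and 628 lower, 3.61%) and 332 by at least 4-fold. The 3 libraries of 24 h lay wholly above those of 0 h for 3375 genes (19.4%) and wholly below for 3743 (21.5%). Genes named from gene lists further on were mostly those with the lowest adjusted p in these same libraries. Groups that do not overlap are therefore no further result for them. Without library C of 0 h 4963 genes were called. Of the genes named further on, C3, COL1A1, COL3A1, CXCL8, IFNL1, KRT16, KRT7, LOX, LUM, MMP3, MT-CO1, MT-CO3 and MT-ND4 lost their call under at least 1 alternative. The median log2 change over all genes tested was -0.01, which is the level against which the medians of gene lists are to be read. In the authors' deposited table for this comparison 3285 genes are listed, 1646 higher and 1639 lower at 24 h, and 3262 of them were called here in the same direction and 0 in the opposite one.

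**Figure D1:**
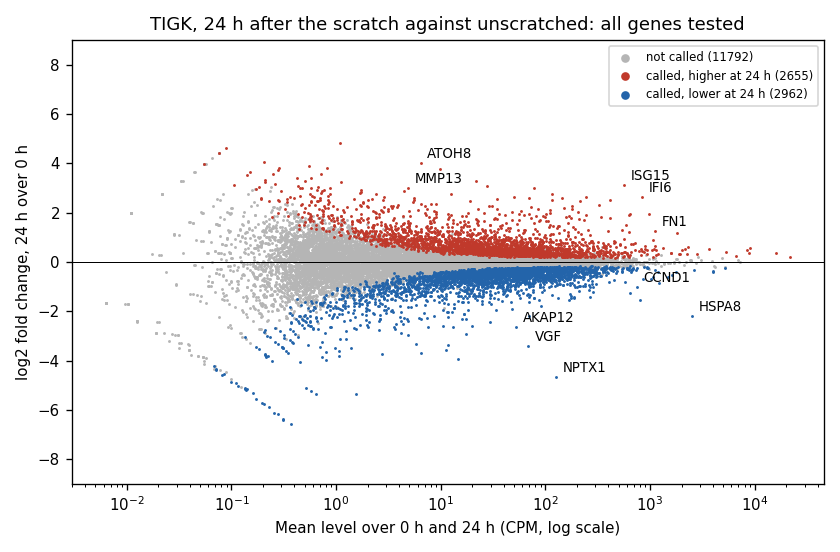
Each point is 1 gene tested in TIGK, with its mean level over 0 h and 24 h (CPM, log axis) against its log2 fold change at 24 h over 0 h, red where called higher (2655), blue where called lower (2962) and grey where not called. NPTX1, at -4.67, is the lowest of the labelled genes, and ISG15 and IFI6 lie high toward the right. The slanted rows at low levels are genes with no count in 1 of the groups, and 48 genes with no count in either group are not drawn.

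The broad picture by gene list was of higher interferon-stimulated, mitotic, desmosomal and FOXO-linked genes and of lower ribosome biogenesis, chaperone, S phase, fatty acid and glycolysis genes. A list is described by how many of its tested members were called each way and by its median log2 change. The shares over all genes, 15.3% higher and 17% lower, are the background. The lists and their members were chosen with earlier results of these data known. A share far from the background may therefore owe part of its size to that choice.

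**Figure D2:**
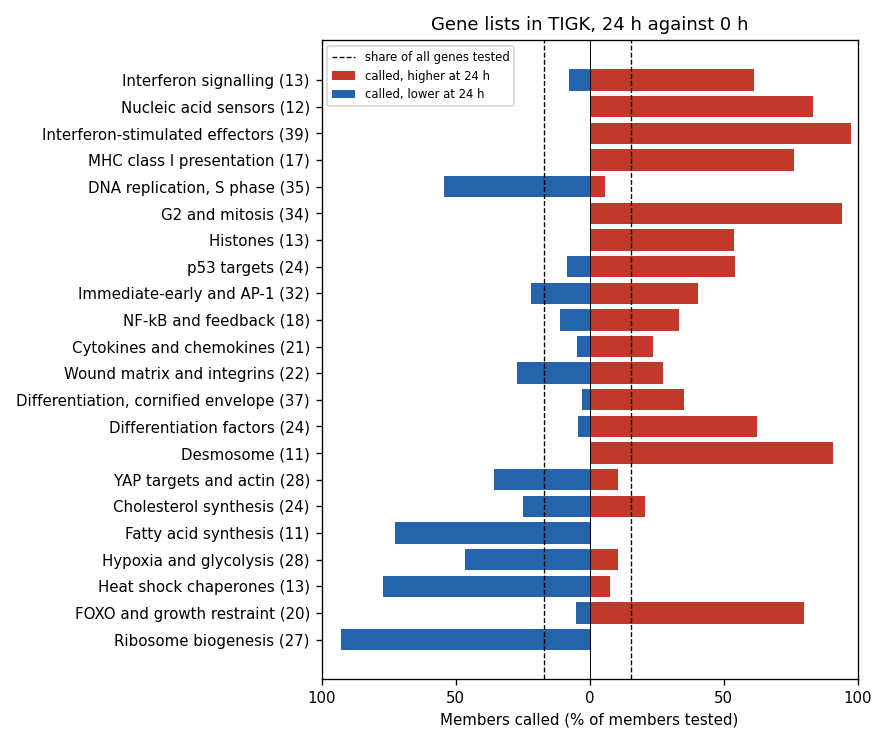
Bars give the share of each list's tested members (number in brackets) called higher at 24 h, to the right, and called lower, to the left, in TIGK; dashed lines mark the shares over all genes tested, 15.3% and 17%. Interferon-stimulated effectors (38 of 39) and G2 and mitosis genes (32 of 34) fill nearly the whole right side and ribosome biogenesis genes (25 of 27) the left.

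Interferon-stimulated effectors, the antiviral proteins made on interferon signalling, were called higher for 38 of 39 members tested and lower for 0, with a median log2 change of 2.0. IFITM2 was the only member not called. The summed level of the list was 2363 to 2914 CPM in unscratched cells and 9197 to 11654 CPM at 24 h. The letters just upstream of these genes are shown because the genes moved together. The search was for GAAA, any 2 bases and GAAA again, the core of the interferon-stimulated response element, on either strand in the 250 bases before the RefSeq gene start. It was found for 22 of the 33 effectors with a RefSeq promoter (66.7%), against 3.07% of all 27305 promoters and 2.31% of the 12085 promoters of tested genes. Among genes that were called and at least 2-fold higher the share was 11.2% (47 of 420), and among those at least 2-fold lower 1.55% (6 of 388). The genes at least 2-fold higher include effectors already counted, such as ISG15 and IFIT1, so that share is not a separate observation. The stretches below are RefSeq sequence of build GRCh38.p14, read 5′ to 3′ along the gene, with the matches in capitals; matches that overlap run together.
ISG15, chr1:1013344-1013439, plus strand: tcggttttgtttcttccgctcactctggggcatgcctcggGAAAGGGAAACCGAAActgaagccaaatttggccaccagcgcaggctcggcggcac
IFIT1, chr10:89392467-89392569, plus strand: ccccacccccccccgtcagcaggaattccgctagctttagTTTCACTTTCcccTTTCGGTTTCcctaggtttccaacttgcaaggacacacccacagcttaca
IFI6, chr1:27672236-27672388, minus strand: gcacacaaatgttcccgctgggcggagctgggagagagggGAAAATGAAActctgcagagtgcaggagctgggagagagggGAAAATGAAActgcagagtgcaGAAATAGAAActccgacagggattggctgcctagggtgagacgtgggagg
IFITM1, chr11:313960-314039, plus strand: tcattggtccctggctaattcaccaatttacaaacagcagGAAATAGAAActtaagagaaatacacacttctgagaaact
MX1, RSAD2 and CMPK2 were among the 11 effectors without these letters in the window. A match describes the letters and not a bound site.

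ISG15, a ubiquitin-like protein that is secreted and attached to other proteins (chr1:1001138-1014540), stood at 125, 115 and 108 CPM before the scratch and at 953, 796 and 1296 CPM at 24 h. All 3 later libraries were far above all 3 unscratched ones, and ISG15 was 8.75-fold higher (log2 change 3.13, SE 0.16, adjusted p = 5e-13). At 6 h it had still been at 100.3, 114 and 75.2 CPM. IFI6, an interferon-induced inhibitor of viral replication (chr1:27666061-27672218), went from 263, 230.1 and 211 to 1373, 1242 and 1767 CPM, 6.22-fold higher (adjusted p = 6.9e-11). For both genes the later libraries lay wholly above the unscratched ones. IFIT1, which binds viral RNA that lacks a host cap (chr10:89392546-89406486), stood at 84.7, 62.7 and 52.6 CPM and later at 409, 369.6 and 479.6 CPM, 6.31-fold higher (adjusted p = 1.4e-11). Its neighbours IFIT2 and IFIT3 were 6-fold and 5.64-fold higher. IFITM1, a membrane protein that blocks viral entry (chr11:313506-315272), stood at 20.3, 17.1 and 13.9 and then 144, 108 and 161 CPM, 8.11-fold higher (adjusted p = 6.1e-12). Its close relative IFITM3, whose reads may be hard to tell from those of its copies, went from 149.96 ± 14.7 to 535 ± 76.6 CPM. In none of these genes did a 24 h library reach down into the range of the unscratched ones. This is no further result. ISG15, IFI6, IFIT1 and IFITM1 were picked among the largest rises with groups that do not overlap, and the others by adjusted p.

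Other interferon-stimulated genes rose too. RSAD2, which encodes viperin, went from 6.08, 2.83 and 3.25 to 49.2, 28.7 and 41.1 CPM, 9.89-fold higher. CMPK2, a mitochondrial nucleotide kinase, went from 6.39, 7.15 and 4.24 to 58.3, 45.6 and 44.7 CPM, 8.45-fold higher. The annotated genes lie on opposite strands and overlap where both start. Reads in the overlap cannot be assigned with certainty. IFI44L stood at 40.4, 27.5 and 23.2 CPM at first and 219.9, 183 and 207 CPM at 24 h, 6.74-fold higher (adjusted p = 3.9e-10). MX2, a GTPase that blocks viral nuclear import, went from 40.8 ± 12.2 to 248 ± 35.3 CPM, 6.13-fold higher. LAMP3, a lysosomal membrane protein, was 6.14-fold higher, at 86.4 ± 9.64 against 14.1 ± 3.03 CPM. DDX60L, a helicase-like antiviral protein, was 3.21-fold higher, at 154 ± 17.8 against 48 ± 6.73 CPM. Library C of the unscratched cells was the lowest of its group for IFI44L, MX2 and DDX60L. Without that library 36 of 39 effectors were called.

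**Figure D3:**
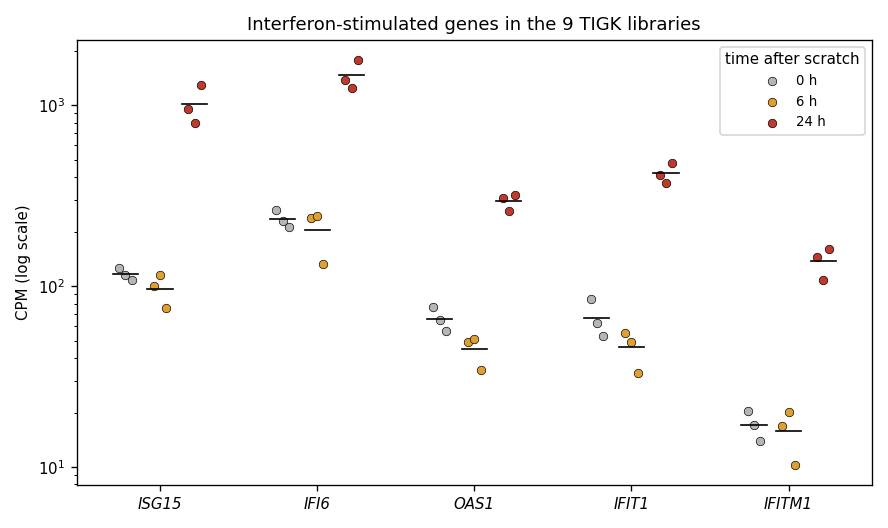
CPM (log axis) of 5 interferon-stimulated genes in each of the 9 TIGK libraries, grey at 0 h, orange at 6 h and red at 24 h, with a line at the mean of 3 libraries. The 24 h libraries lie above both earlier times for every gene, as for ISG15 with 796 to 1296 CPM against 108 to 125 at 0 h. The mean at 6 h lies under that at 0 h for each. This dip was not called for ISG15, IFI6, IFIT1 or IFITM1 (edgeR adjusted p = 0.446, 0.696, 0.068 and 0.867). In these genes library C was the lowest at 6 h.

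Many genes of interferon signalling rose too, though the interferons themselves were scarce. Among 12 ligands and receptors of interferon 7 could be tested and 3 were called, all higher (median log2 change 0.17). The type III interferon IFNL1 had 4 counts in all at 0 h, all in library C, and stood at 0.786, 0.914 and 1.44 CPM at 24 h (adjusted p = 0.0051), a call that was lost with DESeq2; IFNB1, IFNL2, IFNL3 and IFNK were too low to test. The receptor chains IFNLR1 and IFNGR1 went from 22.9 ± 1.38 to 32.3 ± 6.28 CPM and from 26.5 ± 2.65 to 39 ± 3.19 CPM. Of 13 signalling factors 8 were called higher and 1 lower (median 0.76). STAT2 was 3.54-fold higher, with 73.3, 65.9 and 68.9 CPM before and 282, 215 and 239.6 CPM after. IRF7, which amplifies interferon production, went from 80.6 ± 13.6 to 327 ± 22.4 CPM, and USP18, which removes ISG15 and restrains the receptor, from 17.2 ± 3.55 to 64.8 ± 3.64 CPM. For these 3 genes the groups were clear of each other.

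Nucleic acid sensors were called higher for 10 of 12 and lower for 0 (median 1.57). IFIH1, the cytoplasmic sensor MDA5 of long double-stranded RNA, stood at 34.1, 22.8 and 19.9 CPM in unscratched cells and 120.2, 119 and 118 CPM at 24 h, 4.68-fold higher (adjusted p = 5.8e-11). OAS1 and OAS3, which make the signal that activates RNase L, went from 65.9 ± 10.2 to 296 ± 30.4 CPM and from 188 ± 29.9 to 643 ± 82.9 CPM. IFI16, a sensor of DNA, was 2.8-fold higher, at 162 ± 5.54 against 58 ± 6.55 CPM. Genes of MHC class I presentation were called higher for 13 of 17 and lower for 0 (median 0.61), by smaller steps. The light chain B2M went from 443, 391 and 325 to 659.95, 685 and 879.96 CPM and the peptide transporter TAP1 from 52, 56.2 and 53.6 to 114, 100.5 and 102 CPM. HLA-C, whose reads may be shared with other HLA genes, was 2.17-fold and the immunoproteasome subunit PSMB8 1.85-fold higher.

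Most genes of DNA replication that were called fell, and nearly all genes of mitosis rose. S phase genes were called lower for 19 of 35 and higher for 2 (median -0.26), while G2 and mitosis genes were called higher for 32 of 34 and lower for 0 (median 0.81). In RNA from whole cultures, more cells in a phase and more RNA per cell in that phase cannot be told apart. The licensing factor CDC6 stood at 94.3, 92.8 and 94.3 CPM before the scratch and at 52.8, 61.6 and 57.4 CPM at 24 h, 1.64-fold lower (adjusted p = 3.9e-07). MCM10, which starts the replication fork, fell from 23.2, 20.8 and 25.8 to 9.5, 14 and 8.68 CPM, and UHRF1, which maintains DNA methylation at the fork, was 1.75-fold lower at 69.8 ± 9.29 against 122 ± 8.95 CPM. All 3 unscratched libraries lay above all 3 later ones for these genes. Against the list, the thymidine kinase TK1 rose from 154 ± 14.3 to 267 ± 22.9 CPM, and RRM1 was the other member called higher. Without library A of 24 h the count of S phase genes called lower was 13, and without library C of 0 h it was 16, with 33 mitotic genes higher.

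Regulators of mitosis rose together. CCNB2, a cyclin that drives entry into mitosis (chr15:59105078-59125045), stood at 22, 23.2 and 27.5 CPM at 0 h and 58.1, 71.7 and 61.8 CPM at 24 h, 2.63-fold higher (adjusted p = 2.3e-10). TPX2, which nucleates spindle microtubules, went from 104, 97.7 and 116 to 221, 245 and 214 CPM, and KIF20A, a motor of cytokinesis, from 39.7, 38.9 and 53.9 to 112, 126 and 103 CPM. DLGAP5, a spindle protein, was 2.76-fold higher (adjusted p = 2.5e-09). In each the 24 h libraries were all above the unscratched ones, of which library C was the highest. AURKA and PRC1 were the members not called, and PRC1 is a low value at a position it shares with another annotated gene.

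The promoters of both lists were searched in the same window. CCAAT, the box bound by NF-Y, was present on either strand for 20 of 28 mitotic genes with a promoter (71.4%), for 17 of 30 S phase genes (56.7%) and for 33% of all promoters. The E2F core, TTTCCCGC or TTTGGCGC on either strand, was present for 13 of 30 S phase genes (43.3%), 2 of 28 mitotic genes (7.14%) and 1.96% of all promoters. The interferon element core was found for 0 of the genes in both lists. Stretches of a pair of mitotic genes, with CCAAT or its complement in capitals, and a pair of S phase genes, with the E2F core in capitals, are given here.
KIF20A, chr5:138178998-138179069, plus strand: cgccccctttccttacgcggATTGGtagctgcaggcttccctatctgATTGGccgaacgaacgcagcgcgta
DLGAP5, chr14:55191586-55191692, minus strand: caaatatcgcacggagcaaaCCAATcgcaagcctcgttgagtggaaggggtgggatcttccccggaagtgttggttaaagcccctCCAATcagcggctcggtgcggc
MCM6, chr2:135876506-135876615, minus strand: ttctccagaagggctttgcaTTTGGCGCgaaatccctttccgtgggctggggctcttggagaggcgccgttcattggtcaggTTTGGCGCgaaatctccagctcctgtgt
UHRF1, chr19:4909467-4909500, plus strand: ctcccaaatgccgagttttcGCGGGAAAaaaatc

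Histone genes were called higher for 7 of 13 tested and lower for 0 (median 1.05). They are members of families with near-identical copies, so single values are uncertain. HIST1H2AC went from 7.59 ± 0.67 to 27.6 ± 7 CPM, HIST1H2BD from 6.62 ± 0.722 to 14.5 ± 0.751 CPM and HIST2H2BE from 4.62 ± 1.04 to 9.46 ± 0.939 CPM. HIST1H2BG was at 1.29, 0.692 and 1.17 and later 5.44, 3.79 and 3.08 CPM.

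Regulators that hold cells in G1 also changed. Among 17 genes of G1 control and immortalisation 9 were called higher and 4 lower (median 0.27). CCND1, the cyclin that carries cells out of G1 (chr11:69641087-69654474), fell from 993, 999 and 984 to 514, 531 and 437 CPM, 2.01-fold lower (adjusted p = 1.9e-10). CDKN2B, an inhibitor of the cyclin D kinases that overlaps an antisense gene, rose from 29.99, 22.2 and 25.9 to 99.2, 74.7 and 82.9 CPM, and RB1, the retinoblastoma protein, from 56.3 ± 4.36 to 109.8 ± 11.7 CPM. CDKN2A, which encodes p16 and ARF, was 1.33-fold higher at 435 ± 62.4 against 326 ± 21.7 CPM. TERT, the catalytic subunit of telomerase with which the line was immortalised, fell from 33.6, 44.2 and 36.6 to 11.7, 14 and 9.37 CPM, 3.26-fold lower (adjusted p = 4e-09); reads of an introduced copy cannot be told apart from those of the chromosomal gene. Targets of p53 were called higher for 13 of 24 and lower for 2 (median 0.37). CDKN1A, the inhibitor p21, went from 87.4, 77.9 and 85.7 to 185, 171 and 208 CPM and the death gene BBC3 from 3.5, 2.37 and 2.8 to 11.4, 10.4 and 12.4 CPM. The repair factor DDB2 was 1.88-fold higher, whereas the nuclease AEN fell 2.29-fold, from 40.9 ± 6.61 to 17.8 ± 2.21 CPM.

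Ribosome biogenesis was lower across nearly the whole list: 25 of 27 genes were called lower and 0 higher (median -0.72), and MYC and FBL were not called. RRP12, a factor of ribosomal RNA processing, fell from 122, 135 and 130.2 to 50.7, 56.3 and 58.4 CPM, 2.35-fold (adjusted p = 4e-12). NOLC1, a nucleolar chaperone, fell from 362, 357 and 372 to 187, 213 and 181 CPM. DKC1, which modifies ribosomal RNA and binds telomerase RNA, was 1.69-fold and TSR1, which matures the small subunit, 1.79-fold lower. The spread within each group was a small part of these differences.

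Most heat shock chaperones fell, with 10 of 13 heat shock genes called lower and 1, HSPB1, higher (median -0.62). HSPA8, the constitutive HSP70 (chr11:123057489-123063230), stood at 4280.3, 4258 and 3980.5 CPM and fell to 735, 1045 and 932 CPM, 4.62-fold (log2 change -2.21, SE 0.09, adjusted p = 2.2e-14). At 6 h it was still at 3675, 3679 and 3913 CPM. HSPH1, its nucleotide exchange factor, fell from 389, 379 and 323 to 149, 188 and 151 CPM. The inducible pair HSPA1A and HSPA1B, nearly identical copies whose reads may be exchanged, were 2.88-fold and 2.51-fold lower. Chaperones of the endoplasmic reticulum moved the other way. In the list of the unfolded protein and integrated stress responses 10 of 26 were called higher and 2 lower (median 0.11), with HSPA5 at 677, 703 and 630.3 and then 955, 993 and 949.7 CPM, PDIA4 1.48-fold, HSP90B1 1.41-fold and HERPUD1 1.61-fold higher.

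Genes linked to FOXO factors and growth restraint were called higher for 16 of 20 and lower for 1, FOXO4 (median 0.86). TXNIP, which inhibits thioredoxin and glucose uptake (chr1:145992435-145996600), rose from 95.7, 72.1 and 70.9 to 256, 254 and 304 CPM, 3.42-fold (adjusted p = 3.2e-11). TSC22D3, also known as GILZ, rose from 48.2, 36.8 and 41.6 to 149, 117 and 141 CPM. The ubiquitin ligase FBXO32 was 6.86-fold and YPEL5 2.45-fold higher, FBXO32 at 24.9, 19.5 and 20.7 against 3.26, 3.46 and 2.8 CPM. None of these groups overlapped, which is no further result. The genes were picked by adjusted p, and FBXO32 also as a large rise on that condition.

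**Figure D4:**
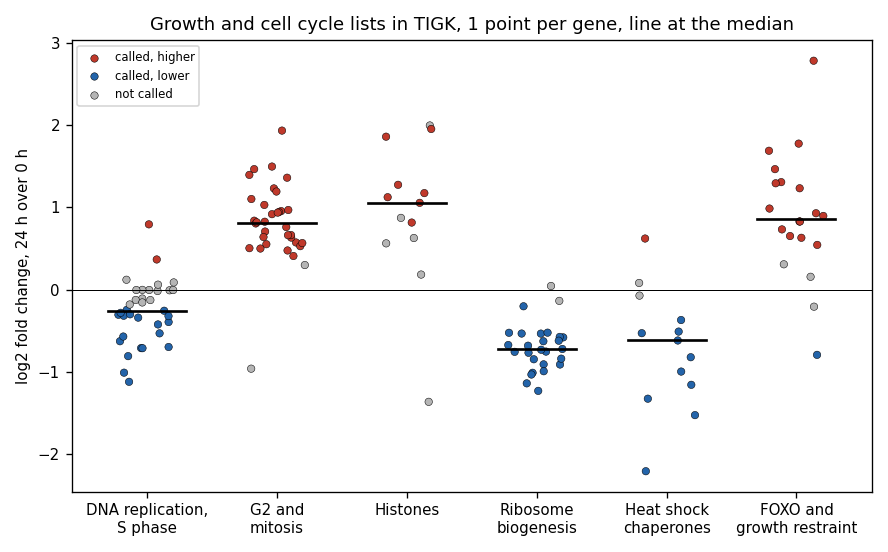
Log2 fold change at 24 h over 0 h of each tested gene in 6 lists, red where called higher, blue where called lower and grey where not called, with a black line at the list median (horizontal spread of points is arbitrary). Medians run from -0.72 for ribosome biogenesis and -0.62 for chaperones to 0.81 for G2 and mitosis and 1.05 for histones, with HSPA8 the lowest point at -2.21.

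Wound signalling genes were mixed by 24 h. Of 32 immediate-early and AP-1 genes 13 were called higher and 7 lower (median 0.30), with 14 higher and 0 lower at 6 h against 0 h, where 2.5% of all genes were called higher and 1.12% lower. JUNB, a subunit of AP-1, stood at 172, 164 and 172 CPM in unscratched cells, 249, 244 and 221 at 6 h and 363, 330.01 and 385 at 24 h, 2.12-fold higher at 24 h (adjusted p = 1.2e-10). KLF4 and KLF6, zinc finger factors, were 2.48-fold and 2.01-fold higher, and DUSP4, a phosphatase that switches off ERK, was 2.75-fold lower at 15.9 ± 0.224 against 43.7 ± 4.32 CPM. Growth factor genes were called higher for 7 of 24 and lower for 5 (median 0.15). FGFBP1, which releases stored fibroblast growth factors, fell from 1230.5, 1314 and 1080.5 to 365, 407 and 470.2 CPM, 2.92-fold (adjusted p = 3.6e-12). VEGFA, the angiogenic factor, fell from 128, 138 and 149.8 to 88.5, 85.9 and 81 CPM, while IGFBP3, which binds insulin-like growth factors, rose 2.39-fold and ERRFI1, which inhibits the EGF receptor, 1.61-fold.

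Cytokines and chemokines were called higher for 5 of 21 and lower for 1 (median 0.14) and NF-kB subunits and feedback genes higher for 6 of 18 and lower for 2 (median 0.09). CXCL14, an epithelial chemokine, went from 77.6, 61.5 and 53.9 to 344, 313 and 425 CPM, 5.62-fold higher (adjusted p = 4.1e-11). IL18 went from 83.6 ± 6.51 to 123 ± 13.2 CPM. CCL5, a T cell chemokine, reached only 8.64, 5.03 and 6.84 CPM, and CXCL8, the neutrophil chemokine, 6.16, 6.6 and 7.25 CPM, from 4.98, 3.4 and 3.48. BIRC3, an inhibitor of cell death induced by NF-kB, was 3.28-fold, the inhibitor NFKBIA 1.93-fold, the deubiquitinase CYLD 1.62-fold and TNFAIP3 1.36-fold higher. Secreted defence genes were called higher for 2 of 13 tested and lower for 1 (median -0.15). The death ligand TNFSF10 rose from 1.47, 2.02 and 1.44 to 7.79, 8.82 and 11.4 CPM and the complement protease C1R from 14.1 ± 2.29 to 25.4 ± 4.74 CPM. C3 was the member called lower, 1.28-fold, with overlapping groups (122, 104 and 88.1 and 97.3, 76 and 70.7 CPM).

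Wound matrix and integrin genes were called higher for 6 of 22 and lower for 6 (median 0.02). FN1, fibronectin, the provisional matrix of wounds (chr2:215360440-215436172), stood at 712, 643 and 631 CPM at 0 h and 1689, 1699 and 1312 CPM at 24 h, 2.37-fold higher (adjusted p = 4.8e-11), having reached 1432 ± 44.6 CPM by 6 h. ITGB6, the integrin chain that binds it at wound edges, went from 21.4, 20.6 and 19.1 to 44.3, 40.7 and 47 CPM. THBS2, a matrix protein that restrains vessels, fell from 298, 259 and 265 to 97.8, 103 and 98.1 CPM, and the common chain ITGB1 was 1.42-fold lower. Proteases and their inhibitors were called higher for 5 of 24 and lower for 7 (median 0.03). MMP13, a collagenase, rose from 0.983, 1.38 and 0.908 to 8.91, 7.25 and 9.51 CPM, 7.92-fold (adjusted p = 5.4e-11), and the membrane protease MMP14 from 331, 331 and 343 to 609, 572 and 567 CPM. ADAMTS1 fell from 26.2, 34.6 and 26.7 to 4.45, 6.66 and 6.22 CPM and the protease inhibitor SERPINE2 from 133, 148 and 108 to 42.3, 46.5 and 44 CPM. MMP3, the stromelysin, was called lower at a very low level, 0.492, 1.33 and 0.643 CPM against 0, 0.261 and 0.274 CPM.

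Basal cell and hemidesmosome genes were called higher for 8 of 15 and lower for 3 (median 0.18). LAMA3, a chain of laminin-332, went from 312, 308 and 278 to 518, 506 and 446 CPM and LAMB3, another, was 1.29-fold higher; both were above this at 6 h, at 647 and 1105 CPM. The integrin chain ITGB4 was 1.39-fold and the basal keratin KRT14 1.47-fold higher, KRT14 at 9962, 9938 and 12489 against 7706, 7348 and 7011 CPM. Among 5 wound keratins 1 was called higher and 0 lower (median 0.36): KRT16, at 1278 ± 261 against 896 ± 125 CPM, which like KRT14 has near-identical copies. Of 6 simple-epithelial keratins 1 was called higher and 3 lower (median -0.40), with KRT18 1.57-fold lower at 206 ± 24.7 CPM. KRT80 rose from 9.29 ± 1.55 to 15.7 ± 1.79 CPM, and the other members called lower were scarce: KRT81 stood at 2.18 ± 0.298 CPM at first and KRT7 at 0.727 ± 0.236 CPM.

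Genes of the cytoskeleton and of YAP, the factor that reads mechanical tension, were called lower for 10 of 28 and higher for 3 (median -0.15). FLNC, a filamin that crosslinks actin, stood at 344, 377 and 352 CPM unscratched, 876, 875 and 874 CPM at 6 h and 199, 191 and 138 CPM at 24 h, 2.03-fold below the start (adjusted p = 7.3e-07). F3, tissue factor, went the same way with 306 ± 51, 472 ± 43.5 and 155 ± 12.1 CPM. TAGLN was 2.29-fold and ACTN1 1.34-fold lower. For these the 6 h level was above and the 24 h level below that of unscratched cells. Mesenchymal genes were called higher for 6 of 18 and lower for 3 (median 0.01), with TWIST2 1.72-fold and the collagen crosslinker LOX 1.61-fold lower. Of the fibroblast markers 5 of 7 could be tested, COL1A2 and PDGFRA being too low, and 4 were called higher (median 1.05): DCN went from 114, 109.8 and 77.6 to 222, 212 and 257 CPM and LUM from 2.3 ± 0.72 to 4.72 ± 0.315 CPM, COL3A1 was at 1.9, 1.57 and 0.684 CPM at 24 h, and COL1A1 was 1.19-fold higher. Without library C of 0 h 2 were called, and without library A of 24 h 1.

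The list of TGF-beta and activin genes, which also holds BMP targets, was called higher for 11 of 26 and lower for 4 (median 0.07). The members named here had the lowest adjusted p and were targets of BMP. Those called lower are not named. Outside this list, BMP6 itself was 12.8-fold lower. ID3, an inhibitor of basic helix-loop-helix factors (chr1:23557918-23559794), stood at 114, 97.2 and 95.2 CPM and rose to 390.4, 329 and 427 CPM, 3.74-fold (adjusted p = 4e-12). ID1 rose from 124, 114 and 87.3 to 311, 331 and 425 CPM and ID2 from 2.77, 2.31 and 2.87 to 15.1, 10.6 and 14.9 CPM. SMAD6, which feeds back on BMP receptors, was 4.5-fold higher, at 40.3, 35.5 and 36.4 against 9.89, 9.69 and 5.9 CPM. For each of the 4 the 24 h libraries were all above the unscratched ones.

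Differentiation genes were called higher for 13 of 37 and lower for 1, FLG (median 0.42). KRT1, a keratin of suprabasal cells (chr12:52674736-52680407), rose from 42.2, 32.7 and 31.2 to 106, 111 and 164 CPM, 3.6-fold (adjusted p = 6.5e-07). DSG1, the desmosomal cadherin of upper layers, went from 3.87, 3.12 and 3.21 to 10.3, 12.9 and 12.9 CPM, and CERS3, a ceramide synthase of the barrier, from 7.87, 7.33 and 6.39 to 16, 17.3 and 17.5 CPM. The tight junction protein CLDN1 was 1.66-fold higher. Transcription factors of differentiation were called higher for 15 of 24 and lower for 1 (median 0.62): MAF went from 17, 7.38 and 7.68 to 59.5, 44.6 and 49.8 CPM, and GRHL3, a driver of barrier formation, went from 14.1, 9.23 and 9.8 to 31.6, 35.4 and 32 CPM. Desmosome genes were called higher for 10 of 11 and lower for 0 (median 0.59), with DSC2 at 126, 108 and 115 against 58.3, 41.4 and 46.7 CPM, DSG3 1.89-fold and PERP 1.57-fold higher. For the 6 genes given by library here no 24 h library lay within the unscratched range. Gap and tight junction genes were called higher for 8 of 15 and lower for 2 (median 0.40): F11R and CGN were 1.46-fold and 2.06-fold higher, and the connexin GJB2 1.56-fold lower. Genes of oral mucosal identity were called higher for 2 of 12 tested and lower for 0 (median 0.36), PAX9, a factor of oral epithelium, at 61.4 ± 8.38 against 43.2 ± 5.13 CPM and KRT24 at 2.03, 1.11 and 1.23 CPM. Of the 8 keratinocyte markers 6 were called higher and 0 lower (median 0.42).

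Fatty acid synthesis genes and many hypoxia and glycolysis genes were lower, while cholesterol synthesis genes went both ways. Fatty acid synthesis genes were called lower for 8 of 11 and higher for 0 (median -0.34). SCD, which makes monounsaturated fatty acids (chr10:100347124-100364834), fell from 4811, 4489 and 4324 to 3715, 3526 and 3185 CPM, 1.31-fold (adjusted p = 0.00012). ACLY, which supplies cytosolic acetyl-CoA, fell from 402, 412 and 409 to 336, 311 and 290.1 CPM, and ELOVL6 and FADS1, an elongase and a desaturase, were 1.52-fold and 1.29-fold lower. Cholesterol synthesis genes were called higher for 5 of 24 and lower for 6 (median 0.04). Its regulator SREBF2 rose 1.33-fold and the sterol carrier STARD4 1.73-fold, while HMGCS1 stood at 341, 352 and 382 CPM at 0 h, 193, 192 and 223 at 6 h and 266, 272 and 261 at 24 h and DHCR7 was 1.34-fold lower. Hypoxia and glycolysis genes were called lower for 13 of 28 and higher for 3 (median -0.30). The summed level of this list did not separate the groups, at 11181 to 11961 CPM at 0 h and 11065 to 12659 CPM at 24 h. PFKP, a phosphofructokinase, fell from 183, 183 and 165 to 117, 109.8 and 117 CPM, HK2, a hexokinase, from 195, 166 and 177 to 124, 113 and 98.9 CPM, and BNIP3, a mitophagy receptor induced by HIF-1, from 221, 196 and 207 to 120.3, 128 and 140.1 CPM. All 3 fell outside the unscratched range, by 1.54-fold, 1.6-fold and 1.61-fold.

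NRF2 and aryl hydrocarbon receptor targets were called higher for 6 of 22 and lower for 2 (median 0.06), led by CYP1B1 at 93.6, 103 and 75.4 against 38, 38.8 and 34.9 CPM. SLC7A11, the cystine importer, was 1.58-fold, TALDO1 1.36-fold and AKR1B10 2.16-fold higher. Lysosome and complement genes were called higher for 5 of 19 and lower for 2 (median 0.11), with NPC1, CTSB and GRN 1.43-fold, 1.33-fold and 1.33-fold higher and CTSL 1.55-fold lower. Mitochondrially encoded transcripts were called higher for 8 of 13 and lower for 0 (median 0.32), for example MT-CO3 at 9768, 9044 and 10339 against 7508, 8079.8 and 5478 CPM, MT-CO1 1.28-fold, MT-ND4 1.28-fold and MT-ND3 1.4-fold higher. Library C of 0 h was the lowest in each; 3 of the 13 were called without it, also 3 without library A of 24 h, 4 with the 9 TIGK libraries alone and 1 with limma on FPKM, but 8 without both C libraries of 0 h and 6 h. Among other cell types' genes, MITF of the melanocyte list was called higher (1 of 3, median 0.43; 19.99 ± 3.32 against 11.2 ± 0.94 CPM), as was KDR of the endothelial list (1 of 2, median 1.63; 4.26, 5.36 and 3.97 against 1.23, 1.33 and 0.794 CPM), and 0 of 2 immune genes were called (median -0.85), CD14 at 3.3 ± 0.322 against 5.31 ± 1.02 CPM and ITGAM at 0, 0.196 and 0.205 against 0.492, 0.231 and 0.151 CPM.

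Among genes with at least 10 CPM at one of the times and with groups that do not overlap, the 12 largest falls included several secreted proteins. NPTX1, a secreted pentraxin best known from neurons (chr17:80467148-80477843), stood at 263, 250.4 and 215 CPM in unscratched cells and 11.3, 10.5 and 6.63 CPM at 24 h, 25.5-fold lower (log2 change -4.67, SE 0.14, adjusted p = 4.7e-17), with 149, 138 and 139.6 CPM at 6 h. VGF, a secreted precursor of peptides, fell from 113, 161 and 98.5 to 12.1, 9.21 and 13.3 CPM, and BMP6, a bone morphogenetic protein, from 13.6, 14.2 and 8.4 to 1.05, 0.98 and 0.752 CPM. Groups that do not overlap were a condition of this choice, so their separation is no further result. SYT12 was 12-fold lower (20.7 ± 2.63 to 1.72 ± 0.4 CPM), APLN, the ligand of the apelin receptor, 7.59-fold (30.9 ± 3.22 to 4.06 ± 0.848 CPM), and SMOC1, a secreted calcium-binding protein, 6.04-fold (18 ± 2.6 to 2.98 ± 0.737 CPM). FAM43B, DAW1, KIAA1549L, FAM167A and AMZ1 were 10.2-fold, 9.95-fold, 6.29-fold, 6.26-fold and 6.1-fold lower. AKAP12, a scaffold of protein kinase A, stood at 80.4, 99.98 and 91 CPM, rose to 206, 199 and 207 CPM at 6 h and fell to 16, 15.1 and 12 CPM at 24 h, 6.28-fold below the start (adjusted p = 1.1e-14). The largest rise of all named genes was in ATOH8, a basic helix-loop-helix factor, from 0.676, 0.692 and 0.832 to 13.2, 10.6 and 12.5 CPM, 16.2-fold (adjusted p = 2.8e-08). CLEC7A, a receptor of fungal glucan, rose from 2.21, 0.519 and 1.29 to 22.2, 17.2 and 15.9 CPM, 13.8-fold.

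The change at 24 h was also set against the cells at 6 h, a comparison that shares the 24 h libraries with the one above. Here 6390 genes (36.7%) were called, 3092 higher (17.8%) and 3298 lower (18.9%), whereas 630 (3.62%) were called between 6 h and 0 h. The latter count was 381 without library A of 6 h, 350 without library B of 6 h and 338 with the 9 TIGK libraries alone. Interferon-stimulated effectors were higher at 24 h than at 6 h for 38 of 39, and between 6 h and 0 h 0 were higher and 7 lower. For G2 and mitosis genes these counts were 33 of 34 higher, and 0 higher and 4 lower, or 7 lower with a replicate block by letter. Cholesterol synthesis genes were higher at 24 h than at 6 h for 15 of 24 and lower for 1, and at 6 h than at 0 h lower for 12 and higher for 0. The lists of YAP targets and actin and of wound matrix and integrins went down from 6 h to 24 h for 18 of 28 and 13 of 22, and went up from 0 h to 6 h for 7 and 8. For ribosome biogenesis 26 of 27 were lower at 24 h than at 6 h, and 1 was higher at 6 h than at 0 h.

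The 24 h response of TIGK differed from that of HaCaT in 2354 genes (13.5%) by a test of the difference itself, 1123 (6.45%) with the TIGK change above and 1231 (7.07%) with it below. HaCaT at 24 h against its own 0 h had 5471 genes called (31.4%; 15.5% higher and 15.9% lower). Of the genes called higher in TIGK 1189 of 2655 were called higher in HaCaT, and 101 lower; of those called lower 1497 of 2962 were lower in HaCaT and 221 higher. Ribosome biogenesis was lower in both lines for 25 of 27 genes each, and for 13 of them the fall was called smaller in TIGK and for 0 larger. Interferon-stimulated effectors were called higher for 6 of 39 and lower for 2 in HaCaT, and the difference was called for 29 of 39, above HaCaT in all 29. Some members were near the floor in HaCaT, where a rise could hardly be called. IFI44L had 1 and 2 counts in all at 0 h and 24 h there, RSAD2 15 and 44, and CMPK2 35 and 55. ISG15 stood at 18 ± 1.23 CPM in HaCaT at 0 h and 19.4 ± 1.53 CPM at 24 h, and its response in TIGK was larger by 3.02 on the log2 scale (SE 0.23, adjusted p = 2.1e-09). IFITM1 stood at 35 ± 0.645 and 33 ± 3.92 CPM in HaCaT, with a difference of 3.10 (adjusted p = 3.4e-09). In HaCaT neither gene was called.

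Hypoxia and glycolysis genes were called higher for 20 of 28 and lower for 1 in HaCaT, and the difference between lines was called for 18, below HaCaT in all 18. HK2 went from 99.3 ± 6.97 to 209.5 ± 17.3 CPM in HaCaT while it fell in TIGK, a difference of -1.76 on the log2 scale (adjusted p = 5.3e-10). Fatty acid synthesis genes were called higher for 9 of 11 and lower for 0 in HaCaT (difference called for 8, all below), and cholesterol synthesis genes higher for 20 of 24 and lower for 0 (difference called for 16, all below). HMGCS1 stood at 134 ± 3.15 CPM in HaCaT before and 284 ± 11.6 CPM after, a difference of -1.52 (adjusted p = 5.3e-10). NF-kB and feedback genes were called higher for 15 of 18 in HaCaT, with the difference called below HaCaT for 10 and above for 0: TNFAIP3 went from 37.7 ± 2.91 to 274 ± 19 CPM there (difference -2.42, adjusted p = 4.4e-11). Basal and hemidesmosome genes were called above HaCaT for 9 of 15 and below for 1, and S phase genes below for 12 of 35 and above for 0. Some of the largest fitted differences rest on almost no reads. SMOC1, ZNF469, KCNJ12 and ESPNL had no count in HaCaT at 0 h and 0.0847 to 0.13 CPM at 24 h, HS3ST2 and PLIN2 had no count in TIGK at 24 h, and TLL1 had 1 count in HaCaT at 24 h, so no fold is given for their difference. HS3ST2, at 0.737, 0.865 and 0.605 CPM at 0 h, was at least 3.7-fold lower in TIGK at 24 h, computed with 3 counts in each library of the empty group.

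**Figure D5:**
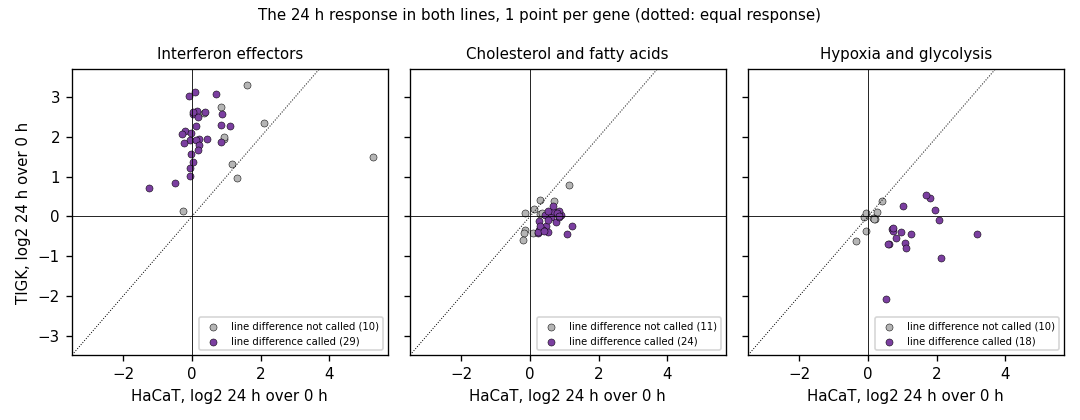
Log2 fold change at 24 h over 0 h in TIGK (vertical) against HaCaT (horizontal) for genes of 3 sets of lists, purple where the difference between lines was called (29, 24 and 18 genes) and grey where not. The 29 purple interferon effectors lie above the dotted line of equal response and most lipid, hypoxia and glycolysis genes lie below it; the point farthest right in the first panel is CXCL10, which had no count in HaCaT at 0 h.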

How the data were processed

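RNA was extracted with Trizol and libraries were made by a sequencing company, per the labels. HISAT2 2.0.5, StringTie 1.3.3b, featureCounts 1.5.0-p3 and build hg38 are named, per the submitters' processing notes; annotation release and strand setting are not given in the sources used here. The authors deposited whole-number counts per gene, FPKM (count over gene length and 1 constant per library), and tables of log2 fold changes with p-values, test statistics (a score per gene) and adjusted p-values, per the file headers. Column letters A, B and C are not tied to the labels' replicate numbers, and 0 columns of values were left unmapped.

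Counts of the 18 libraries were fitted in edgeR 4.0.16 (R 4.3.3): filterByExpr, TMM, 6 group means, quasi-likelihood test, 12 residual degrees of freedom, Benjamini-Hochberg over 17409 genes. SE is the absolute log2 change over the square root of F. The method was tried on counts simulated from its own fitted spread, with independent libraries. That is no check on technical replicates or on pairing by letter. Alternatives used DESeq2 1.42.0 and limma 3.58.1. Named genes were protein-coding with a unique symbol: the 12 largest called, non-overlapping changes each way with at least 10 CPM, the 6 largest line differences each way, and up to 4 members per list with the lowest adjusted p. Members and the 43 lists were chosen with earlier results of these data known. Deviations from group means correlated within letters between 0 h and 6 h (0.433 for A, 0.343 for B and 0.739 for C), a pairing seen in the data and not given by the labels, but not for every letter between 0 h and 24 h or between 6 h and 24 h (0.224, 0.017 and 0.164). Promoters are RefSeq GRCh38.p14; 12085 tested genes matched by symbol.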

Additional observations from a re-analysis of the deposited data

Results flagged for a closer look

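The genes below responded differently in the lines, by a test of the difference itself (the log2 change of TIGK at 24 h over 0 h minus that of HaCaT, edgeR adjusted p under 0.05). They are the named genes among the largest such differences, or called in opposite directions in both lines, with more than 3 counts in each of the 4 groups. Of 178 named genes 100 had a called difference, and 73 others with enough counts are not listed here. No explanation was tested for any of them.

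Interferon-stimulated genes rose in TIGK and were not called in HaCaT: the difference was 3.02 for ISG15, 3.10 for IFITM1 and 2.62 for IFI6, the last with 4.58 and 4.63 CPM in HaCaT. DDX60L rose in TIGK and fell in HaCaT, from 16.3 ± 2.21 to 6.84 ± 1.03 CPM, a difference of 2.93. MMP3 was lower in both lines, from 18 ± 5.47 to 0.349 ± 0.0285 CPM in HaCaT, and the difference was 3.51; in TIGK it stood at only 0.492, 1.33 and 0.643 CPM at 0 h.

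Genes of laminin-332 and its integrin were higher at 24 h in TIGK and lower in HaCaT, by 1.42 for LAMA3, 0.65 for LAMB3 and 0.80 for ITGB4. MT-ND3 did the same, by 0.82. Fallen in TIGK and risen in HaCaT were VEGFA (-1.32), C3 (-0.79), LOX (-1.91, with 3.14 and 7.32 CPM in HaCaT), F3 (-1.40), BNIP3 (-1.26) and HK2 (-1.76). Lipid synthesis genes fell in TIGK and rose in HaCaT as well, with HMGCS1 at -1.52, DHCR7 at -0.65, ACLY at -0.92, SCD at -0.61 and FADS1 at -0.79. In the 16 genes called in opposite directions both the rise and the fall passed the test on their own.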

How the results depend on the processing

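The 4 counts of called genes that involve 24 h stayed within 1.5 times their main value, in the same balance of directions to within 10 percentage points, under every alternative run. For 24 h against 0 h (5617) they were 5604 with median-of-ratios size factors, 5392 with no filter on low counts, 5926 with DESeq2, 5590 with limma on log2(FPKM + 0.1), 4976 with the 9 TIGK libraries alone, 5225 without both C libraries of 0 h and 6 h and 4680 to 5236 with 1 library left out. At least 2-fold changes numbered 1063 to 1304 (main 1227), the difference between lines 1898 to 2729 (main 2354) and 24 h against 6 h 5466 to 6679 (main 6390). Between 0 h and 24 h a pairing by letter was not seen for every letter. Same-letter correlations of deviations were 0.157, -0.101 and 0.06 for A, B and C. Letters A and C of 0 h correlated best with the same letter of 24 h, and letter B with another letter (0.134). With a replicate block by letter the counts were 5910, 1214, 2718 and 6679. Alternatives for 6 h against 0 h (main 630) were added after seeing the data: the count was 338 with the 9 TIGK libraries alone, 786 with the replicate block, 350 to 817 with 1 library left out and 515 to 936 otherwise. Of 174 named genes called, 161 kept their call in every setting run, 160 of them in all 13 and PLIN2 in 12, as it was too low to test in the TIGK libraries alone; 13 lost it in at least 1 (C3, COL1A1, COL3A1, CXCL8, IFNL1, KRT16, KRT7, LOX, LUM, MMP3, MT-CO1, MT-CO3 and MT-ND4), CD14 and ESPNL gained one, and 0 of the called genes changed sign. By library, C3 lost its call without A of 0 h and without B or C of 24 h, CXCL8 without B or C of 0 h, KRT16 without B or C of 0 h or C of 24 h, KRT7 without C of 24 h, MMP3 without B of 0 h, MT-ND4 without C of 0 h or A of 24 h, COL1A1 without B of 0 h or A of 24 h, LUM without each of the 6 libraries except B of 0 h, and COL3A1 without each except C of 24 h; LOX, MT-CO1 and MT-CO3 lost theirs with limma on FPKM, and IFNL1 with DESeq2. Depth limits genes with few counts, and 3 libraries a group limit small changes.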

Other observations

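THBS1, a matrix protein that activates TGF-beta, was high at 6 h and lower again at 24 h; it was picked after its values were seen and is given with no test. It stood at 653, 795 and 762 CPM at 0 h, 1812, 2016 and 1929 CPM at 6 h and 949.8, 990.4 and 723 CPM at 24 h. The 6 h libraries were the highest, and the levels at 24 h overlapped those at 0 h.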
